A study of Mus musculus with 6 samples.

Results

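The mitochondrial genome of the mouse encodes its own small set of RNAs, and 35 of them were examined here in oocytes with and without Rpa1. The genes were taken by symbol, as every gene whose name starts with mt- among the rows analysed here, which gave 35 of 49315 genes: 13 mRNAs and 22 tRNAs. The 2 mitochondrial rRNA genes, mt-Rnr1 and mt-Rnr2, were not analysed here. RNA came from germinal vesicle (GV) oocytes, fully grown immature eggs whose nucleus has not yet broken down, of 3 Control mice and 3 Rpa1 OcKO mice, in which Rpa1 is deleted in the oocyte only. RPA1 is the largest subunit of replication protein A, a complex that coats single-stranded nuclear DNA, and the series asks what RPA1 does for DNA damage repair in oogenesis. All 6 mice were 4 to 5 weeks old and primed with PMSG, a gonadotropin that drives follicle growth, and each library pooled about 20 oocytes freed of cumulus cells. The strain, the genotype of the Control mice and the promoter of the deleting recombinase are not known from the sources used here.

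Mammalian mitochondrial DNA is a compact circle that is read from both strands into long precursor RNAs. The tRNAs lie between most of the mRNAs, and cutting them out of the precursor frees the mRNAs on either side. Except for mt-Nd6, the mRNAs then receive short poly(A) tails, which in some of them complete the stop codon. The 13 mRNAs, counted here as 1 per gene, encode core subunits of the respiratory chain. Complex I (NADH dehydrogenase) has 7 of them and complex III (the cytochrome bc1 complex) 1. Complex IV (cytochrome c oxidase) has 3 and complex V (ATP synthase) 2. All other subunits are made from nuclear genes. mt-Atp8 and mt-Atp6 overlap by 43 bases and mt-Nd4l and mt-Nd4 by 7, with no tRNA between. The genes of such a pair need not lie on separate RNAs, so they are not independent counts of mRNAs. A mammalian oocyte holds a very large number of mitochondria and passes them to the embryo.

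In the deposited coordinates (GRCm38), 12 of the mRNAs and 14 of the tRNAs lie on the plus strand and come from the heavy strand transcript, while mt-Nd6 and 8 tRNAs lie on the minus strand and come from the light strand transcript. The libraries were made with a low-input kit that starts from poly(A) and does not mark the strand. A read from one strand and its antisense partner therefore cannot be told apart, and RNAs without poly(A), such as free tRNAs, are sampled poorly. The identity, start and end of all 35 genes matched GENCODE M21, which supplied the sequences below.

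The 3' ends of the mRNAs are shown because the tail is both what the kit captures and, in 3 of 13 genes as annotated, part of the code. Capitals mark the stop codon, or the single base of it that the gene holds. As annotated, mt-Co3, mt-Nd4 and mt-Cytb end in an incomplete stop codon, and mt-Co1 and mt-Nd1 are given as genes that hold a whole one. mt-Nd1 ends at position 3707, and mt-Ti begins at 3706 on the same strand, inside that stop codon. Likewise, mt-Nd2 ends at 4951 and mt-Tw begins at 4950. The ends of the cut mRNAs were not examined.
mt-Co3: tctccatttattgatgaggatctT
mt-Nd4: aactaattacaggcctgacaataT
mt-Cytb: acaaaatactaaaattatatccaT
mt-Co1: ccaacctatgtaaaagtaaaaTAA
mt-Nd1: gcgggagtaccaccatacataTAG

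A second feature of the sequences bears on the levels of the genes between mt-Co1 and mt-Nd4. A run of 7 pseudogenes on chromosome 1, between 24611535 and 24616197 (GRCm38, minus strand), follows the order and, to within 1 base, the spacing of the mitochondrial genome from position 6390 to 11042, from inside mt-Co1 to inside mt-Nd4. Aligned with BLAST+ to the mitochondrial transcripts, Gm28661 was identical to mt-Co2 over 681 bases, Gm10925 to mt-Atp6 over 678, Gm28437 to mt-Co3 over 783, Gm10222 to mt-Nd4l over 294 and Gm28439 to mt-Nd4 over 876. Gm28438 differed from mt-Nd3 at 1 of 345 bases, the substitution T3C counted from the first base of mt-Nd3. The starts are shown with that base in capitals.
mt-Nd3: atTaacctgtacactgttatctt
Gm28438: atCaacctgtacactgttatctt
Reads that lie wholly in such identical sequence cannot be placed by sequence alone, and no source used here says how they were treated. Only the pseudogenes themselves were aligned, and the bases between them were taken as part of the stretch from their spacing. Of the mRNAs, 7 lie by more than 50% of their length in it (mt-Co2, mt-Atp8, mt-Atp6, mt-Co3, mt-Nd3, mt-Nd4l and mt-Nd4) and are called covered below. mt-Co1 lies in it by 31.3% of its length and mt-Nd1, mt-Nd2, mt-Nd5, mt-Nd6 and mt-Cytb not at all.

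The libraries held 36280148 to 44575222 counts. Genes with a count numbered 18435, 18330 and 19351 in Control and 19915, 22393 and 21251 in OcKO, and the TMM factors were 0.963, 0.917 and 0.949 and then 1.039, 1.022 and 1.124. Both separated the groups without overlap, as the summed mitochondrial mRNAs below did, and their part in the results was not tested. Rpa1 stood at 140 to 156 CPM (counts scaled to a common library size by the TMM method of edgeR) in the Control libraries and at 4.14 to 7.76 CPM in the OcKO libraries, as the labels say. Oocyte markers summed to 26400 to 43800 CPM in Control against 22170 to 26840 CPM in OcKO. The 12 cumulus and granulosa markers summed to 64.7 to 88.6 and 80.9 to 111 CPM, with Ptx3 at 0 in all libraries; 6 theca and stroma markers summed to 2.40 to 7.61 and 1.08 to 4.62 CPM and 5 blood markers to 3.89 to 13.0 and 1.05 to 7.19 CPM. Of the 8 oocyte markers, 3 lay lower in all OcKO libraries than in all Control libraries, where 8.67% of all tested genes did. edgeR called 0 of the 8, and 2 were lower at an unadjusted p under 0.05, where 5.21% of all tested genes were. The marker sums of Control and OcKO overlapped in each of these lists, and the part of these cells in the results was not tested.

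As a share of the RNA counted, the mitochondrially encoded mRNAs stood about 2-fold higher in the OcKO libraries, at the smallest p that the design allows. The 13 mRNAs summed to 745, 873 and 701 CPM in Control replicates 1 to 3 and to 1483, 1579 and 1667 CPM in OcKO replicates 1 to 3. Every OcKO library lay above every Control library, at 772.9 ± 89.3 against 1577 ± 92.0 CPM (SD, n = 3), a 2.05-fold difference (log2 difference 1.03 with SE 0.11). The exact two-sided permutation test gave p = 0.1, the smallest that 3 against 3 libraries can give, and 0.133 after Benjamini-Hochberg adjustment over the 16 sums and ratios tested. As a share of all counts, the 35 genes made up 0.0724%, 0.0807% and 0.0670% in Control and 0.155%, 0.162% and 0.188% in OcKO, again without overlap (exact permutation p = 0.1). In such pools, more mitochondrial RNA per oocyte and less of the other RNA cannot be told apart.

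Gene by gene, no mitochondrially encoded RNA passed the test over all genes. Of the 16060 genes that passed the filter on low counts, edgeR called 0.143% in either direction and 0.137% as higher at an adjusted p under 0.05, and 0 of the 23 mitochondrial genes that were tested. At an unadjusted p under 0.05, 8 of the 13 mRNAs were higher and 0 lower, where 5.93% of all tested genes were higher. All 13 mRNAs were tested and all 13 had a positive log2 fold change, where 50.8% of all tested genes did, and their median was 1.09 against 0.01 over all genes. For 11 of the 13 the lowest OcKO library exceeded the highest Control library, which held for 10.7% of all tested genes. DESeq2 on the same genes called the 8 higher (mt-Nd1, mt-Nd2, mt-Co1, mt-Co3, mt-Nd4, mt-Nd5, mt-Nd6 and mt-Cytb), where it called 2.99% of all tested genes higher, and limma voom called 0. With edgeR on genes of at least 5 CPM, which left 10 of the 13 mRNAs, mt-Nd4 (adjusted p = 0.0339) and mt-Co1 (adjusted p = 0.0490) were called higher, where 0.594% of 10094 genes were.

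**Figure D1:**
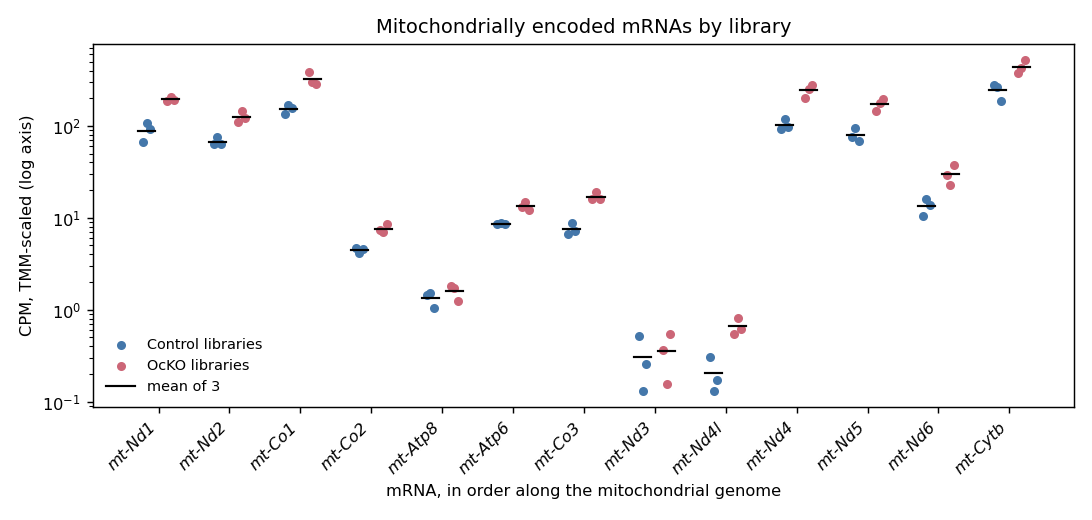
TMM-scaled CPM of the 13 mitochondrially encoded mRNAs (log axis), in order along the mitochondrial genome, with 1 point per library and a line at the mean of 3. The OcKO points lie above the Control points for 11 genes and overlap for mt-Atp8 and mt-Nd3, and levels span from under 1 CPM (mt-Nd3, mt-Nd4l) to over 100 CPM (mt-Cytb).

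Complex I takes electrons from NADH and is the complex with the most subunits made in the mitochondrion. mt-Nd4, a proton-pumping membrane subunit, stood at 92.8, 119.9 and 98.0 CPM in Control against 199, 251 and 282 CPM in OcKO. The 2 groups were well apart, at 2.36-fold (log2 fold change 1.24 with SE 0.20, edgeR adjusted p = 0.110), which was the smallest p among the mitochondrial genes. mt-Nd1, the subunit next to the quinone site, stood at 67.2, 107 and 92.8 CPM in Control against 188, 208 and 193 CPM in OcKO (2.21-fold, log2 fold change 1.14 with SE 0.22, edgeR adjusted p = 0.120). The Control libraries of mt-Nd1 were spread more widely than the OcKO libraries.

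mt-Nd5, another proton-pumping subunit, stood at 76.5, 94.8 and 69.1 CPM in Control against 147, 178 and 196 CPM in OcKO (2.16-fold, edgeR adjusted p = 0.120). mt-Nd2, of the same kind, stood at 63.5, 75.4 and 63.5 CPM in Control against 111, 145 and 122 CPM in OcKO (1.87-fold, edgeR adjusted p = 0.125). Both genes had no overlap of the groups, and the lowest OcKO library lay above the highest Control library by a wide margin. mt-Nd6, the only mRNA of the light strand transcript, stood at 10.5, 16.0 and 13.9 CPM in Control against 29.4, 22.5 and 37.2 CPM in OcKO (2.21-fold, edgeR adjusted p = 0.260). It overlaps the end of mt-Nd5 by 14 bases, and without strand its counts may include RNA of the opposite strand.

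The remaining complex I mRNAs are short, covered by the chromosome 1 copy and thinly counted. mt-Nd4l stood at 0.303, 0.132 and 0.173 CPM in Control against 0.548, 0.814 and 0.615 CPM in OcKO, from 22 and 86 counts in all (log2 fold change 1.69 with SE 0.80, edgeR adjusted p = 0.505). mt-Nd3 stood at 0.524, 0.132 and 0.259 CPM in Control against 0.365, 0.154 and 0.542 CPM in OcKO, from 33 and 45 counts. Its groups overlapped fully (log2 fold change 0.21 with SE 0.90, edgeR adjusted p = 0.964).

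Complex III passes electrons to cytochrome c, and its 1 mitochondrial gene, mt-Cytb, encodes cytochrome b, which holds the heme groups of the Q cycle. mt-Cytb was the most counted mitochondrial mRNA in both groups, at 279, 266 and 187 CPM in Control against 380, 430 and 515 CPM in OcKO. The groups did not overlap, and the difference of 1.81-fold (log2 fold change 0.86 with SE 0.22, edgeR adjusted p = 0.169) was the smallest among the 8 mRNAs with an unadjusted p under 0.05.

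Complex IV reduces oxygen. mt-Co1, its catalytic subunit, stood at 133, 170 and 155 CPM in Control against 389, 301 and 283 CPM in OcKO (2.12-fold, log2 fold change 1.09 with SE 0.20, edgeR adjusted p = 0.120). OcKO replicate 1 held the most mt-Co1, while the same library held the least mt-Nd4, mt-Nd5 and mt-Cytb of the 3. mt-Co3, a structural core subunit, stood at 6.59, 8.70 and 7.14 CPM in Control against 16.0, 18.9 and 16.1 CPM in OcKO (2.28-fold, edgeR adjusted p = 0.285). mt-Co2, which takes electrons from cytochrome c, stood at 4.74, 4.17 and 4.58 CPM in Control against 7.38, 6.93 and 8.64 CPM in OcKO (1.70-fold, edgeR adjusted p = 0.698). In both genes every OcKO library lay above every Control library.

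Complex V makes ATP, and its mitochondrial subunits belong to the membrane part that carries protons. mt-Atp6 stood at 8.66, 8.75 and 8.50 CPM in Control against 13.0, 15.0 and 12.2 CPM in OcKO (1.55-fold, log2 fold change 0.63 with SE 0.40, edgeR adjusted p = 0.645). mt-Atp8, which overlaps mt-Atp6 by 43 bases, stood at 1.434, 1.503 and 1.037 CPM in Control against 1.80, 1.72 and 1.26 CPM in OcKO (log2 fold change 0.26 with SE 0.79, edgeR adjusted p = 0.949). The groups were apart for mt-Atp6, with a narrow spread in Control, and overlapped for mt-Atp8.

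**Figure D2:**
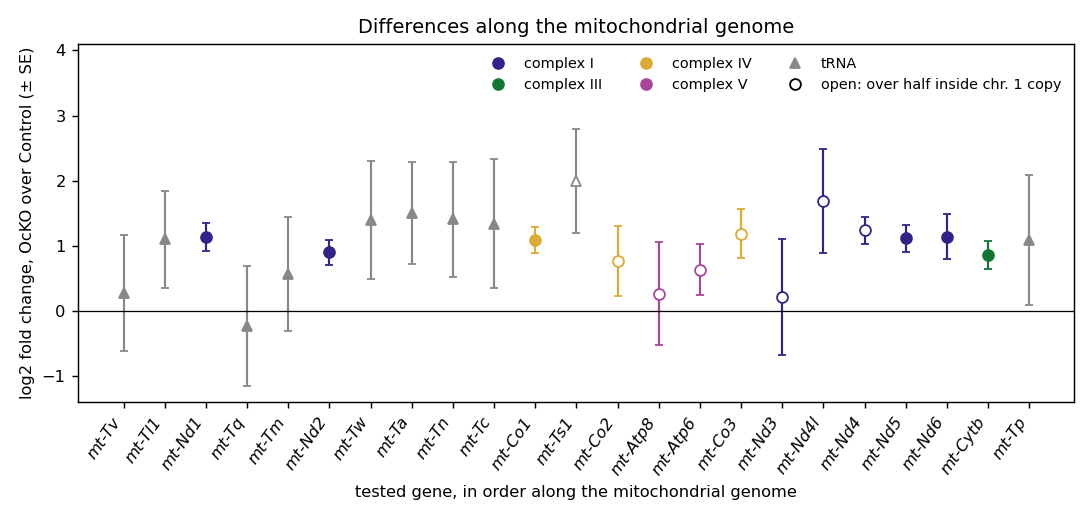
Log2 fold change of OcKO over Control with its SE (edgeR) for the 23 tested mitochondrial genes, in order along the mitochondrial genome, coloured by complex; circles are mRNAs, triangles tRNAs, and open symbols lie by over 50% of their length in the chromosome 1 copy. The 13 mRNAs lie above 0, between 0.21 (mt-Nd3) and 1.69 (mt-Nd4l), and of the tRNAs mt-Tq lies below 0.

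Summed by complex, all 4 complexes were higher in every OcKO library than in every Control library. Complex I mRNAs summed to 311.4, 413.5 and 337.7 CPM in Control against 675.6, 805.5 and 830.7 CPM in OcKO, a 2.18-fold difference. Complex IV mRNAs summed to 145, 183 and 167 CPM in Control against 413, 327 and 308 CPM in OcKO, a 2.11-fold difference. The complex V mRNAs summed to 10.1, 10.3 and 9.54 CPM in Control against 14.8, 16.7 and 13.4 CPM in OcKO, a log2 difference of 0.58 with SE 0.097. With mt-Cytb for complex III at 1.82-fold, each of these 4 had an exact permutation p of 0.1 and an adjusted p of 0.133 over the 16 comparisons.

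The difference between complexes was tested within each library, as the ratio of summed counts to complex I, which needs no scaling. Complex V stood at 0.0324, 0.0248 and 0.0282 of the complex I counts in Control and 0.0219, 0.0208 and 0.0162 in OcKO. It was lower in all 3 OcKO libraries (log2 difference -0.54 with SE 0.17, exact permutation p = 0.1, the smallest possible, adjusted p = 0.133). Both complex V genes are covered by the chromosome 1 copy, so the value could not be recomputed without covered genes. Complex III stood at 0.698 ± 0.176 of complex I in Control and 0.572 ± 0.0436 in OcKO (SD, n = 3; exact permutation p = 0.3), with Control replicate 1 at 0.894 above the others. Complex IV stood at 0.467 ± 0.0255 and 0.462 ± 0.130 (exact permutation p = 0.9), and its sign turned without OcKO replicate 2 or OcKO replicate 3. The light strand mRNA mt-Nd6 stood at 0.0177 ± 0.0030 of the 12 heavy strand mRNAs in Control and 0.0192 ± 0.0043 in OcKO (exact permutation p = 0.5), and its sign turned without Control replicate 1 or OcKO replicate 3.

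**Figure D3:**
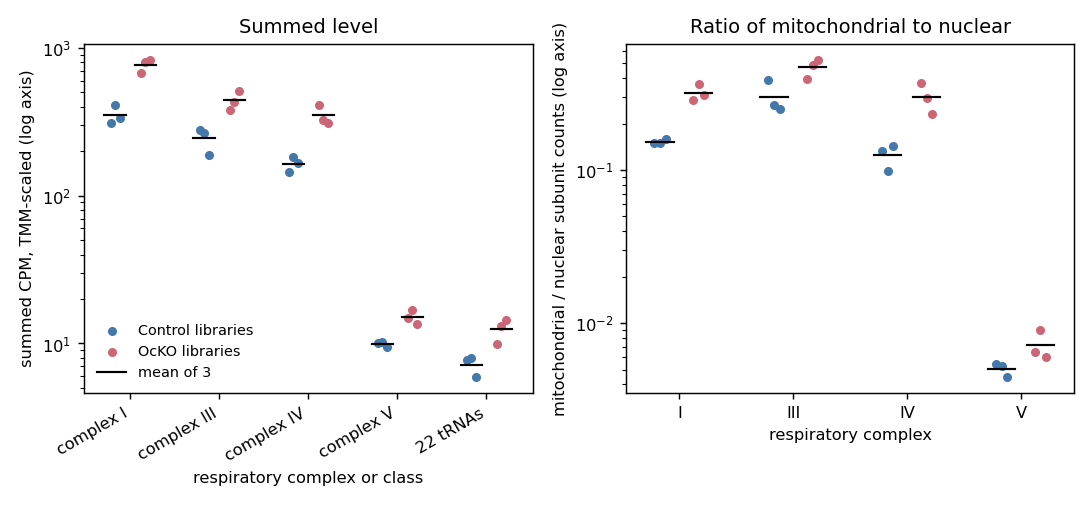
Left, summed TMM-scaled CPM (log axis) of the mitochondrially encoded mRNAs of each complex and of the 22 tRNAs; right, counts of mitochondrially encoded over nuclear-encoded subunits of each complex (log axis); 1 point per library and a line at the mean of 3. In every column the 3 OcKO points lie above the 3 Control points.

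As counted, the make-up of the mitochondrial mRNA pool was similar in both groups. mt-Cytb made up 37.4%, 30.5% and 26.7% of mitochondrial mRNA counts in Control and 25.6%, 27.3% and 30.9% in OcKO, and mt-Co1 made up 17.9%, 19.5% and 22.1% and then 26.2%, 19.0% and 17.0%. For 11 of the 13 mRNAs the shares of the groups overlapped. The shares of mt-Atp6 (1.13 ± 0.109% in Control, 0.853 ± 0.112% in OcKO, SD, n = 3) and mt-Atp8 (0.171 ± 0.0223% and 0.102 ± 0.0239%) were lower in all 3 OcKO libraries. Both had an exact permutation p of 0.1, and 0.557 after adjustment over the 13 shares. These 2 belong to the 6 mRNAs that lie wholly within the span of the chromosome 1 copy. Counts of the 6 were 3.49 ± 0.266% of those of the 6 mRNAs not covered in Control and 3.15 ± 0.233% in OcKO (SD, n = 3). The part of read placement in these shares was not tested.

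Per length, the order of the mRNAs was nearly alike in the groups. In Control, mt-Cytb led at 213 ± 43.3 CPM per kb (SD, n = 3), ahead of mt-Co1 (98.9 ± 11.9), mt-Nd1 (93.0 ± 21.1), mt-Nd4 (75.2 ± 10.4), mt-Nd2, mt-Nd5 and mt-Nd6. The libraries of mt-Co1, mt-Nd1, mt-Nd4 and mt-Nd2 overlapped between neighbours in that order. In OcKO the first 7 genes stood in the same order, from mt-Cytb at 386 ± 59.5 CPM per kb to mt-Nd6 at 57.2 CPM per kb. Below them came 6 covered genes in both groups, from mt-Atp6 at 12.7 and 19.7 CPM per kb in Control and OcKO down to mt-Nd3 and mt-Nd4l, at 0.876 and 0.682 CPM per kb in Control. mt-Co3 stood above mt-Atp6 and mt-Nd4l above mt-Nd3 in OcKO, the reverse of Control, and these neighbours overlapped in 1 of the groups each.

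Along the heavy strand transcript, neither the level nor the difference followed the order of all 12 genes closely. Across the 12 heavy strand mRNAs, Spearman's rho between gene start and the log2 fold change was 0.16, and between gene start and CPM per kb it was -0.07 in Control and -0.06 in OcKO. Among the 5 that are not covered by the copy, rho was -0.60 with the log2 fold change and 0.30 with CPM per kb in either group. The 7 covered genes lie next to each other, and all but mt-Nd4 had the lowest CPM per kb. Coverage and position thus cannot be told apart in the values over 12 genes. These correlations are across genes that share libraries and neighbouring sequence, and are given as a description. The first mRNA, mt-Nd1, and the last, mt-Cytb, had log2 fold changes of 1.14 and 0.86.

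The pseudogenes of the chromosome 1 copy had positive log2 fold changes, as the mitochondrial genes they repeat did, and 0 of the 7 were called by edgeR. Gm28437, the copy of mt-Co3, stood at 9.35, 11.9 and 10.2 CPM in Control against 20.4, 24.5 and 24.5 CPM in OcKO (log2 fold change 1.14 with SE 0.34, edgeR adjusted p = 0.243), beside 1.19 for mt-Co3. Gm10925 had a log2 fold change of 0.79 beside 0.63 for mt-Atp6, Gm28661 had 0.84 beside 0.77 for mt-Co2, and Gm28438 had 0.21 beside 0.21 for mt-Nd3. Gm29216 had 0.99 beside 1.09 for mt-Co1 and Gm28439 had 1.16 beside 1.24 for mt-Nd4. The pair furthest apart was Gm10222 with 0.64 (SE 0.74) beside 1.69 (SE 0.80) for mt-Nd4l, although the sequences are identical over the aligned bases. The 7 pseudogenes summed to 31.32, 36.65 and 32.78 CPM in Control against 61.8, 65.8 and 69.6 CPM in OcKO.

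Between a mitochondrial gene and its copy, the split of the counts overlapped between the groups in 6 of 7 pairs. mt-Co3 held 41.6 ± 0.517% of the counts of the pair in Control and 42.4 ± 2.36% in OcKO (SD, n = 3), and mt-Co2 held 47.8 ± 7.56% and 46.8 ± 5.61%. mt-Co1 and mt-Nd4, which reach beyond the copy, held 95.4 ± 0.352% and 97.4 ± 0.465% of the counts of their pairs in Control. mt-Nd4l differed, with 15.1%, 8.93% and 9.09% in Control and a lowest value of 16.9% and a mean of 20.9 ± 4.05% in OcKO (exact permutation p = 0.1). The 2.05-fold difference of the summed mRNAs did not rest on covered genes: it was 1.00 on the log2 scale without them and 1.03 with the 7 pseudogenes added, an alternative chosen after the data were seen.

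**Figure D4:**
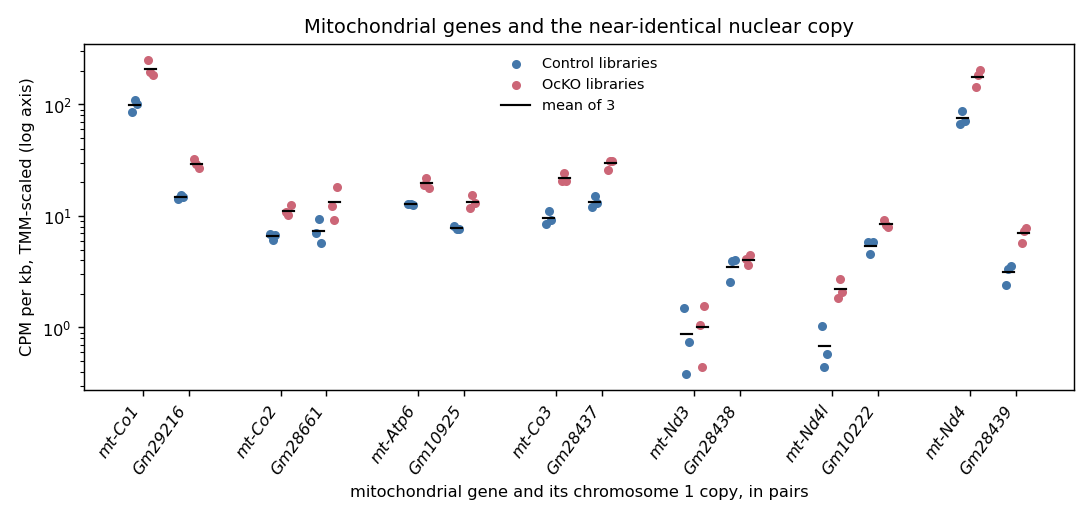
TMM-scaled CPM per kb (log axis) of 7 mitochondrial genes, each beside its chromosome 1 pseudogene, with 1 point per library and a line at the mean of 3. mt-Co2, mt-Atp6 and mt-Co3 lie near their copies, mt-Nd3 and mt-Nd4l lie below theirs, and mt-Co1 and mt-Nd4, which reach beyond the copy, lie far above theirs.

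The tRNAs carry amino acids to the mitochondrial ribosome and gave few of the mitochondrially encoded counts, at 0.922 ± 0.101% in Control and 0.783 ± 0.0999% in OcKO (SD, n = 3). Their sum was 7.78, 7.91 and 5.91 CPM in Control against 9.98, 13.15 and 14.35 CPM in OcKO. The groups did not overlap, and the 1.73-fold difference (log2 difference 0.79 with SE 0.21) had an exact permutation p of 0.1 and an adjusted p of 0.133. The ratio of tRNA to mRNA counts was 0.00931 ± 0.0010 in Control and 0.00789 ± 0.0010 in OcKO (exact permutation p = 0.2), so a different behaviour of the 2 classes was not shown. The 8 light strand tRNAs summed to 2.94 ± 1.03 and 5.76 ± 1.88 CPM and the 14 heavy strand tRNAs to 4.26 ± 0.174 and 6.73 ± 1.17 CPM, a split chosen after the data were seen.

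The most counted tRNAs are shown, since they stand beside the mRNAs mt-Nd1 and mt-Nd2 with no base or few bases between: mt-Tl1 ends where mt-Nd1 begins, mt-Tm ends where mt-Nd2 begins, and mt-Tq lies 2 bases before mt-Tm on the other strand. Counts in these genes can come from uncut precursor as well as from the tRNA, and the files do not tell them apart.
mt-Tl1: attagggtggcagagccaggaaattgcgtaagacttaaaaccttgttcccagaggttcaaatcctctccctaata
mt-Tm: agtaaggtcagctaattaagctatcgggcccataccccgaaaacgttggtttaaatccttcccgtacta
mt-Tq: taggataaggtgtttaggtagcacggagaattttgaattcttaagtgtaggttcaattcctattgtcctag
mt-Tl1, a leucine tRNA, stood at 1.52, 1.21 and 1.84 CPM in Control against 2.92, 4.11 and 2.76 CPM in OcKO (log2 fold change 1.10 with SE 0.75, edgeR adjusted p = 0.687), without overlap. mt-Tm, the methionine tRNA, stood at 1.10, 2.24 and 0.634 CPM in Control against 1.32, 2.02 and 2.54 CPM in OcKO. mt-Tq, the glutamine tRNA, stood at 1.52, 1.58 and 0.778 CPM in Control against 0.365, 1.12 and 1.80 CPM in OcKO. The groups overlapped for both mt-Tm and mt-Tq.

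The tRNAs between mt-Nd2 and mt-Co1, a cluster in which mt-Tw is followed by light strand genes, were among those with higher OcKO values. mt-Ta (alanine) stood at 0.331, 0.369 and 0.173 CPM in Control against 0.799, 0.836 and 0.862 CPM in OcKO. mt-Tn (asparagine) stood at 0.965, 0.422 and 0.259 CPM and then 1.53, 1.19 and 1.67 CPM, and mt-Tw (tryptophan) at 0.0551, 0.211 and 0.317 CPM and then 0.731, 0.396 and 0.418 CPM. These had no overlap of the groups, with edgeR adjusted p values of 0.561, 0.646 and 0.664. mt-Tc (cysteine) stood at 0.551, 0.316 and 0.0576 CPM in Control against 0.548, 0.704 and 1.11 CPM in OcKO, with overlap. mt-Ty (tyrosine) had 0 counts in all Control libraries and 5, 7 and 5 counts in OcKO. Transcripts of the nuclear gene Cep295 matched mt-Tn at 91.5% identity over 71 bases and mt-Ty at 89.5% over 57. They also matched mt-Ta at 88.9% and mt-Tc at 84.1%, each over 63 bases, and mt-Tl1 at 93.5% over 62. The part of this likeness in the tRNA counts was not tested.

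mt-Ts1, a serine tRNA that follows mt-Co1 and overlaps it by 3 bases, stood at 0.0827, 0.185 and 0.202 CPM in Control against 0.571, 0.594 and 0.738 CPM in OcKO. It had the lowest p of the tRNAs, and the groups did not overlap (log2 fold change 2.00 with SE 0.80, unadjusted p = 0.0393, edgeR adjusted p = 0.411), but it lies wholly within the span of the chromosome 1 copy. mt-Tp (proline) stood at 0.165, 0.501 and 0.202 CPM in Control against 0.183, 0.440 and 1.23 CPM in OcKO, and mt-Tv (valine) at 0.331, 0.237 and 0.403 CPM and then 0.160, 0.770 and 0.246 CPM. Both overlapped between the groups.

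Of the 10 tRNAs that passed the filter on low counts, 5 lay higher in all OcKO libraries, 0 lower and 5 overlapped, beside 10.7% higher over all tested genes. Over all 22 tRNAs, which include mt-Ty and mt-Te among 12 that did not pass, 7 lay higher, 0 lower and 15 overlapped. Ratios of summed counts, scaled to TMM-scaled library sizes, were above 1 in 12 tRNAs, counting mt-Ty, and under 1 in 9. mt-Td had 0 counts in all 6 libraries, where 3 counts would be 0.0673 to 0.0827 CPM before TMM scaling. The 12 that did not pass held 0 to 26 counts summed over a group. mt-Tf and mt-Th both went from 19 counts in Control to 9 in OcKO, a ratio of 0.397 (exact 95% counting interval 0.158 to 0.921). The libraries of the groups overlapped for both. mt-Te went the other way, from 6 to 26 counts without overlap, a ratio of 3.63 (interval 1.46 to 10.8). These intervals leave out the spread between mice.

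**Figure D5:**
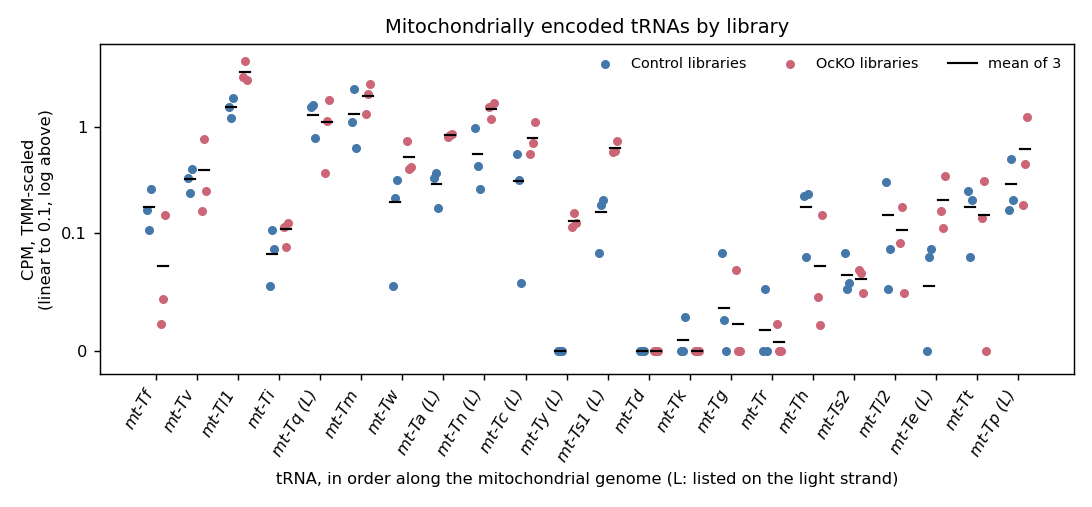
TMM-scaled CPM of the 22 mitochondrially encoded tRNAs (linear up to 0.1, log above), in order along the mitochondrial genome, with 1 point per library and a line at the mean of 3; (L) marks light strand genes. OcKO points lie above all Control points for 7 tRNAs, among them mt-Tl1, mt-Ta and mt-Ts1, and no tRNA shows the reverse.

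The partners of the mitochondrial genes in the respiratory chain are encoded in the nucleus. Median log2 fold changes of their mRNAs lay below the 1.09 of the mitochondrial mRNAs. Grouped by symbol, the nuclear genes of complex I had log2 fold changes with a median of 0.13 (37 tested), beside 0.01 over all genes. Those of complex III had 0.28 (9), of complex IV -0.35 (10) and of complex V 0.04 (16, with Atpif1, which the ratios below leave out). Positive values numbered 27 in complex I, 8 in complex III and 9 in complex V, where 50.8% of all tested genes were positive. Without overlap of the groups, 4, 3, 2 and 2 genes were higher in complexes I, III, IV and V, beside 10.7% of all tested genes. In complex I, 2 were lower without overlap, beside 8.67%. In complex IV, 3 were positive and 7 negative. Control replicate 2 stood high in some of the 7, as in Cox6a1 (171, 369 and 149 CPM in Control, 138, 132 and 189 CPM in OcKO) and Cox6c (112, 308 and 111, then 116, 106 and 104 CPM). None of the 72 was called by edgeR over all genes, where 0.143% of all genes were. At an unadjusted p under 0.05, 1 gene each was higher in complexes I, III and V (Ndufb10, Cyc1 and Atp5o), and 0 in complex IV, where 5.93% of all tested genes were higher. Cyc1, the cytochrome c1 subunit, stood at 30.5, 19.7 and 22.6 CPM in Control against 43.5, 35.2 and 55.4 CPM in OcKO, without overlap (edgeR adjusted p = 0.326).

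Within each library, the ratio of mitochondrial to nuclear counts of a complex was higher in OcKO. For complex I it was 0.151, 0.150 and 0.158 in Control and 0.286, 0.363 and 0.308 in OcKO, a 2.08-fold difference. For complex IV it was 0.133, 0.0983 and 0.142 in Control and 0.369, 0.295 and 0.232 in OcKO, a 2.38-fold difference. Its log2 difference was 1.25, and 1.09 without Control replicate 2 or without OcKO replicate 1. Complex III (1.57-fold) and complex V (1.41-fold) had smaller differences. All 4 ratios were without overlap, with an exact permutation p of 0.1 and an adjusted p of 0.133. Counts over genes of unlike length are compared here between libraries only.

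Nuclear genes that transcribe, process and maintain the mitochondrial genome were listed by function, and edgeR called 0 of the 77 tested, beside 0.143% of all genes. At an unadjusted p under 0.05, 1 of 11 mitochondrial transcription genes was higher, 4 of 30 RNA processing and decay genes were higher, 2 of 21 DNA maintenance genes were higher and 2 lower, and 2 of 15 regulators of biogenesis and quality control were higher and 1 lower. Over all tested genes 5.93% were higher and 5.21% lower at that p, 11.1% in either direction. The medians of the 4 lists were 0.37, 0.16, 0.18 and 0.09. By DESeq2, Fastk, Fastkd2 and Pde12 were called higher and Top3a lower, where 2.99% of all genes were called higher and 1.71% lower.

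Pde12, a mitochondrial nuclease that trims poly(A) tails, stood at 11.3, 17.8 and 18.0 CPM in Control against 40.2, 39.9 and 40.8 CPM in OcKO (log2 fold change 1.36 with SE 0.30, edgeR adjusted p = 0.127). Fastk, of a family of mitochondrial RNA-binding proteins, stood at 9.62, 19.6 and 10.4 CPM in Control against 36.5, 24.3 and 55.3 CPM in OcKO (edgeR adjusted p = 0.230). Fastkd2, of the same family, stood at 29.1, 25.3 and 36.2 CPM and then 55.5, 79.7 and 46.6 CPM (edgeR adjusted p = 0.238). In these 3 genes, named for the smallest p of their list, the groups did not overlap. Of the 30 RNA processing and decay genes tested, 5 lay higher in all OcKO libraries and 1 lower. Over all tested genes, 10.7% lay higher and 8.67% lower without overlap.

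Among the transcription genes, Mterf4, a factor of mitochondrial ribosome assembly, stood at 132, 121 and 150 CPM in Control against 156, 216 and 224 CPM in OcKO (log2 fold change 0.57, edgeR adjusted p = 0.348). Tfb1m, an rRNA methyltransferase, had a log2 fold change of -0.43 (SE 0.30), and Tfb2m, the transcription initiation factor, one of 0.57 (SE 0.43). Of DNA maintenance, Ssbp1, the single-stranded DNA-binding protein of mitochondria, stood at 16.6, 24.2 and 19.7 CPM in Control against 35.7, 31.9 and 31.8 CPM in OcKO (log2 fold change 0.72 with SE 0.28, edgeR adjusted p = 0.403). Top3a, a topoisomerase of nucleus and mitochondrion, stood at 153, 168 and 153 CPM and then 115, 85.3 and 63.3 CPM (log2 fold change -0.85, edgeR adjusted p = 0.234). Exog, a mitochondrial nuclease, stood at 0.276, 0.0264 and 0.547 CPM in Control against 3.65, 0.462 and 5.32 CPM in OcKO, with overlap (edgeR adjusted p = 0.414).

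Of the regulators, Yy1, a transcription factor, stood at 0.333 ± 0.162 CPM in Control against 2.37 ± 1.26 CPM in OcKO (SD, n = 3), with an edgeR adjusted p of 0.312. Lonp1, the matrix protease that degrades TFAM, stood at 175, 212 and 111 CPM in Control against 88.1, 37.6 and 118 CPM in OcKO, with overlap. Clpp, another matrix protease, stood at 11.4, 11.2 and 11.3 CPM in Control against 26.6, 16.1 and 19.5 CPM in OcKO, without overlap (log2 fold changes of -1.03 and 0.87, edgeR adjusted p = 0.430 and 0.431).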

How the data were processed

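The deposited values are raw counts per gene, given both in a joint table and in a file for each sample, and 0 values differed between the forms. The submitters' processing notes name Trimmomatic 0.36, STAR 2.5.2b, featureCounts (Subread 1.5.2) and the build GRCm38. No source used here states the annotation release, the strand setting or how reads with more than one possible place or gene were handled. Per the labels, each library is 1 mouse, so p-values measure the spread between animals and between library preparations together.

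All genes were fitted with edgeR 4.0.16 in R 4.3.3 (TMM scaling, filterByExpr, quasi-likelihood F-test, genotype as the only term), with Benjamini-Hochberg adjustment over the 16060 genes that passed the filter and calls at 0.05. Each SE was derived by dividing the size of the log2 fold change by the root of its F statistic. DESeq2 1.42.0 and limma 3.58.1 (voom) served as alternatives. CPM are TMM-scaled means ± SD. Sums and ratios were compared with exact permutation tests over libraries (scipy 1.17.1). For the light strand ratio 0.5 was added to both counts. Mitochondrial transcripts of GENCODE M21 were aligned to all other transcripts with BLAST+ 2.17.0. The scripts were tested on simulated data.

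Members and gene lists were chosen with earlier results of these data known. Values per library are given for all mRNAs and for tRNAs of at least 10 counts per library on average; from each nuclear list of mitochondrial gene expression, the 3 genes with the smallest p are named. One count was worth 0.0224 to 0.0276 CPM; since reads carry no molecular identifiers, limits and intervals cover counting error only.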

Additional observations from a re-analysis of the deposited data

How the results depend on the processing

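The 16 sums and ratios kept their direction under the scaling, block, covered-gene and leave-one-out alternatives that were run, except 2. The complex IV to complex I ratio (log2 difference -0.05) took 0.001218 without covered genes and -0.2656 to 0.09418 without 1 library. The light strand ratio (0.10) took -0.04406 to 0.2902 without 1 library. No value without covered genes can be had for complex V. The cause of these turns was not tested. Leaving out each library gave log2 differences of 0.98 to 1.15 for the mRNA sum, 0.67 to 0.94 for the tRNA sum and -0.64 to -0.41 for the complex V to complex I ratio; library size alone gave 1.203 for the mRNA sum and moved the median of all genes from 0.01 to 0.18. The rRNA sum and ratio were not run.

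The number of genes called over the whole table was 23 by edgeR, 68 at 5 CPM, 749 by DESeq2, 1 by limma voom and 0 to 5 without 1 library (0 without Control replicate 3 or OcKO replicate 3). Of the mitochondrial genes 0 were called by edgeR, 2 at 5 CPM and 8 by DESeq2, and of the nuclear genes of mitochondrial gene expression 0 and, by DESeq2, 4. With the replicate number as a block, edgeR called 0 genes. In that fit the mitochondrial mRNAs had a median log2 fold change of 1.08, beside 0.04 over all genes. The log2 difference of the mRNA sum was 1.03 with a sign-flip p of 0.25, the smallest for 3 pairs. Same-numbered libraries did not deviate together (correlations of -0.037, -0.0448 and -0.045), so no pairing by number was seen. Deviations from a mean of 3 libraries are tied to each other, so this check cannot exclude a pairing. Single genes that changed sign were mt-Nd3 (-0.23 to 0.84 without 1 library), mt-Tv (-0.63 to 0.64, and -0.04848 with the block) and mt-Tq (-0.80 to 0.17). mt-Nd3, mt-Nd4l and the tRNAs had few counts, down to 13 per library on average among the tested mRNAs.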

Other observations

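Other nuclear copies of mitochondrial sequence, less alike than the one on chromosome 1, also held counts. Gm13340 on chromosome 2, 97.6% identical to mt-Co1 over 1545 bases, had 195, 204 and 214 counts in Control and 536, 517 and 429 in OcKO (log2 fold change 1.01 with SE 0.46, edgeR adjusted p = 0.486). Gm13341, 95.9% identical to mt-Co2 over 684 bases, had 36, 67 and 40 counts in Control and 101, 80 and 107 in OcKO. Gm13339, 96.7% identical to mt-Nd2 over 510 bases, had 61, 72 and 58 counts and then 89, 112 and 97. The log2 fold changes of Gm13341 (0.77) and Gm13339 (0.39) had edgeR adjusted p values of 0.807 and 0.912. In scaled CPM the groups did not overlap for Gm13340 and Gm13339, beside 10.7% higher without overlap over all tested genes, and overlapped for Gm13341 (1.767 CPM in Control replicate 2, 1.76 CPM in OcKO replicate 2). Gm4076 on chromosome 13, 95.2% identical to mt-Nd5 over 954 bases, had 17, 17 and 15 counts in Control and 19, 32 and 51 in OcKO. Its groups overlapped in scaled CPM (log2 fold change 0.82 with SE 0.81, edgeR adjusted p = 0.800). Gm11410 on chromosome 4, 92.9% identical to mt-Cytb over 1142 bases, had 0, 1 and 0 counts in Control and 2, 1 and 5 in OcKO.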
